A study of Mus musculus with 8 samples.

Results

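The cytosolic ribosomal protein genes are the protein-coding genes whose mouse symbols begin with Rpl or Rps and a number, together with Rplp0, Rplp1, Rplp2 and Rpsa; kinases of the Rps6k family and pseudogenes were left out. The rule found 82 genes among the 55487 gene rows of the data, 50 for the large (60S) subunit and 32 for the small (40S) subunit. Their RNA was measured by sequencing of hearts from 4 groups of mice with 2 libraries each: Set7KO mice given isoproterenol, Set7KO mice given saline, wild-type (WT) mice given isoproterenol and WT mice given saline. Set7KO mice lack Setd7, a lysine methyltransferase, in all tissues and came from crosses of heterozygotes, so the deletion is not limited to the heart. Isoproterenol, an agonist of beta-adrenergic receptors used to stress the heart, was given subcutaneously at 60 mg/kg, and both agents were given for 14 days. The labels name the tissue as heart without a chamber and do not say whether the 2 libraries of a group came from separate animals, so the p-values below reflect variation among these libraries only.

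Ribosomal proteins assemble with ribosomal RNA in the nucleolus into the subunits that translate mRNA, and each ribosome holds 1 copy of nearly all of them. Their mRNAs are abundant, short and stable, and most begin with a terminal oligopyrimidine (TOP) run, a C followed by pyrimidines, through which mTORC1 and Larp1 set how well they are translated. In the heart, ribosome production is known to increase during hypertrophic growth, and striated muscle carries its own paralog of Rpl3, Rpl3l.

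The stretch around the RNA start is shown for the genes at both ends of the WT response to isoproterenol and for the muscle paralog, because the TOP run is the feature these mRNAs are known for. The first 4 lines are the lowest members of that response that the promoter table held, and the next 5 the highest. Each line gives 30 bases beginning 10 bases before the start annotated by RefSeq (GRCm38.p6), or before the most upstream one where there were several, read 5′ to 3′ on the strand of the gene. Capitals mark a run of a C followed by 5 or more pyrimidines (C or T) on that strand, with its C within 5 bases of the annotated start.
Rpl41, chr10:128549149-128549178, minus strand: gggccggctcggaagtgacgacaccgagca
Rps15, chr10:80292421-80292450, plus strand: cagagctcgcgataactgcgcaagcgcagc
Rps18, chr17:33955646-33955675, minus strand: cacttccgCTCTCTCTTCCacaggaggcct
Rps19, chr7:24884582-24884611, plus strand: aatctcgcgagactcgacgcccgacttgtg
Rpl39, chrX:37085203-37085232, minus strand: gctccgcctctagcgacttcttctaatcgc
Rps15a, chr7:118116128-118116157, minus strand: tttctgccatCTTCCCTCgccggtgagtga
Rps24, chr14:24490668-24490697, plus strand: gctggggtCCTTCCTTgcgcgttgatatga
Rpl5, chr5:107900518-107900547, plus strand: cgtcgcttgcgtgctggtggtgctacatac
Rps4x, chrX:102189372-102189401, minus strand: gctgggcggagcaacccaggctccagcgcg
Rpl3l, chr17:24727816-24727845, plus strand: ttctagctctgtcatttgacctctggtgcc

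The promoter table held 62 of the 82 members. Of these, 26 (41.9%) had such a run at 1 or more of their annotated starts, against 11.9% of the 27025 genes in that table. An annotated start can lie several bases or further from the one used, and the window of Rps15 ends upstream of the gene coordinates given below. A run that was not found thus says only that these letters were not in this window. Of the genes shown, Rps18 had a run and the other low ones did not, and Rps15a and Rps24 had one and the other high ones did not. Among tested members the median WT log2 fold change was -0.63 for the 26 with a run and -0.50 for the 34 without one.

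The libraries held 27847069 to 51705705 counts. Setd7 was at 3.79 to 5.70 CPM (counts scaled by normalised library size) in the 4 Set7KO libraries and at 43.0 to 72.6 CPM in the 4 WT libraries, a log2 difference of -3.59 (SE 0.18, adjusted p = 0.000356, edgeR's quasi-likelihood test). All 7 cardiomyocyte markers were detected in every group and summed to 60597 to 78780 CPM per library. Set7KO saline replicate 2 stood apart: its 5 neutrophil markers summed to 104 CPM, against 3.47 to 13.1 CPM in the other libraries, and its 6 erythroid markers to 10521 CPM, against 1254 to 4351 CPM. The letter in its library name (C), which the labels do not explain, is the one in the names of both WT saline libraries, while its Setd7 level was that of the other Set7KO libraries. Both WT isoproterenol libraries carry D, both Set7KO isoproterenol libraries A, and Set7KO saline replicate 1 carries B. Isoproterenol and saline libraries thus shared no letter in either genotype, and the isoproterenol groups of the genotypes shared none. These comparisons, and the difference between the responses of the genotypes, cannot be told apart from whatever the letter stands for. Only the saline groups shared a letter. The Set7KO groups each held libraries that differed widely in the ribosomal protein genes, as given below, and results that rest on them are given with and without them.

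All members together took 1.80% to 2.76% of the counts of a library, with exact 95% Clopper-Pearson intervals of at most 0.0061 percentage points to either side, which cover counting error only. Of the 82 members, 80 passed the filter on low counts and had a count in every library. Rpl10l, the testis-expressed copy of Rpl10, was at 0 in all libraries, which allows up to 3 counts or 0.112 CPM in the library with the highest such limit. Rpl39l, the testis-expressed copy of Rpl39, had at most 5 counts in any library. Per kilobase of exon, averaged over the libraries, the level was highest for the stalk gene Rplp1 (1189 CPM per kb), followed by Rps15 (915), the stalk gene Rplp0 (696), Rpl36 (580.0) and Rps29 (484). It was lowest, after the 2 testis copies, for Rps15a (16.7 CPM per kb), Rpl39 (18.3) and Rpl30 (18.9). Their annotated exonic lengths of 6270, 1434 and 3020 bases exceed those of their main transcripts (5179, 612 and 886 bases). This lowers the measure, for Rps15a the least.

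**Figure D1:**
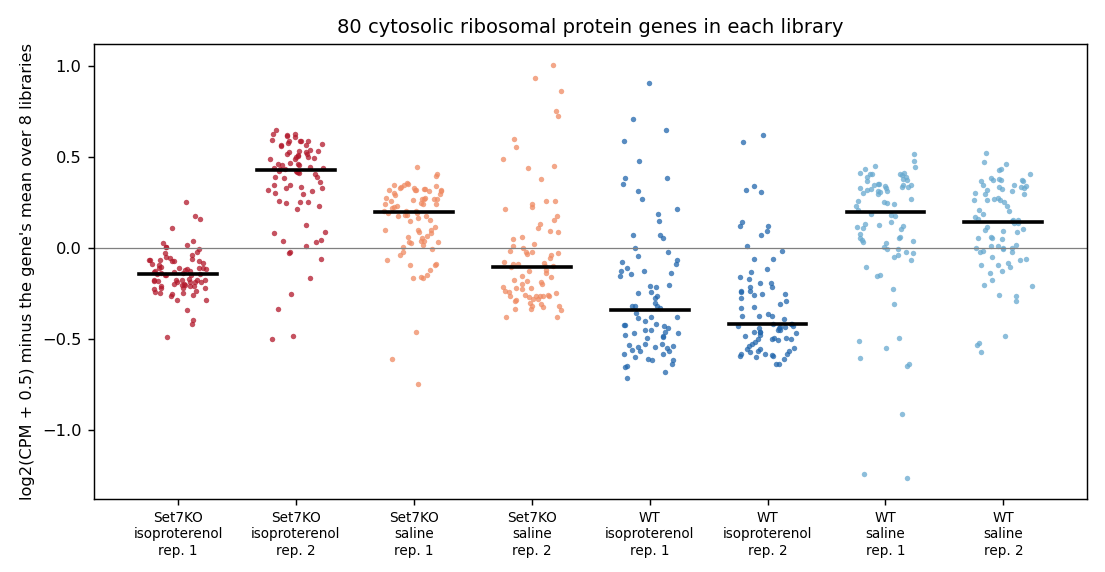
Each point is 1 of 80 members in 1 library, plotted as log2(CPM + 0.5) minus that gene's mean over the 8 libraries; black bars are medians. Both WT isoproterenol libraries have medians below 0 (-0.34 and -0.42) and both WT saline libraries above 0 (0.20 and 0.14), while the 2 libraries of each Set7KO group lie on opposite sides of 0.

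In WT hearts the summed level of the members was 16787 and 16238 CPM after isoproterenol, against 24201 and 24278 CPM after saline. Both isoproterenol libraries lay below both saline libraries, with means of 16512 ± 388 and 24240 ± 54.4 CPM (SD, n = 2 each). In Set7KO hearts the sum was 19305 and 28370 CPM after isoproterenol, against 23901 and 20006 CPM after saline. Here the groups overlapped: the isoproterenol libraries were the lowest and the highest of the 4. The 2 subunits moved together, since the ratio of the 60S sum to the 40S sum stayed between 1.414 and 1.503 in the 8 libraries. These are whole-tissue values, in which fewer cells of a type and less RNA per cell cannot be told apart.

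Isoproterenol against saline in WT hearts gave 65 members with a fold change below 0 and 15 above 0 on the log2 scale. The median log2 fold change of the 80 tested members was -0.57, against 0.06 over all 17636 genes tested. It was -0.60 for the 48 tested 60S members and -0.57 for the 32 40S members. No member passed an adjusted p of 0.05 in edgeR's quasi-likelihood test on all 8 libraries, and neither did any other gene (0% called). At an unadjusted p under 0.05, 38 members were lower and 4 higher, against 13.3% and 18.5% of all genes. The libraries of the 2 groups did not overlap for 59 lower and 11 higher members, against 33.4% and 39.3% of all genes.

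Whether single members passed depended on which libraries and which test set the spread. DESeq2 on the same counts called 27 members lower and 3 higher at an adjusted p under 0.05 (7.2% and 8.22% of genes). The edgeR test on the 4 WT libraries alone called 40 lower and 5 higher (12.9% and 16.8% of 16988 genes). With Set7KO saline replicate 1 left out, the edgeR test called 22 lower and 4 higher (7.89% and 12.2% of 18260 genes), and with Set7KO saline replicate 2 left out, 24 lower and 5 higher (9.11% and 11.6% of 18172 genes). With no filter on low counts, 2 members were higher and 5 lower (3.99% and 1.21% of 29066 genes). The 3 higher members in DESeq2 were Rpl39, Rpl5 and Rps24. All of these fits took the WT comparison from the same 4 WT libraries, so they do not bear on it independently. The calls thus changed with libraries that are not part of this comparison.

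**Figure D2:**
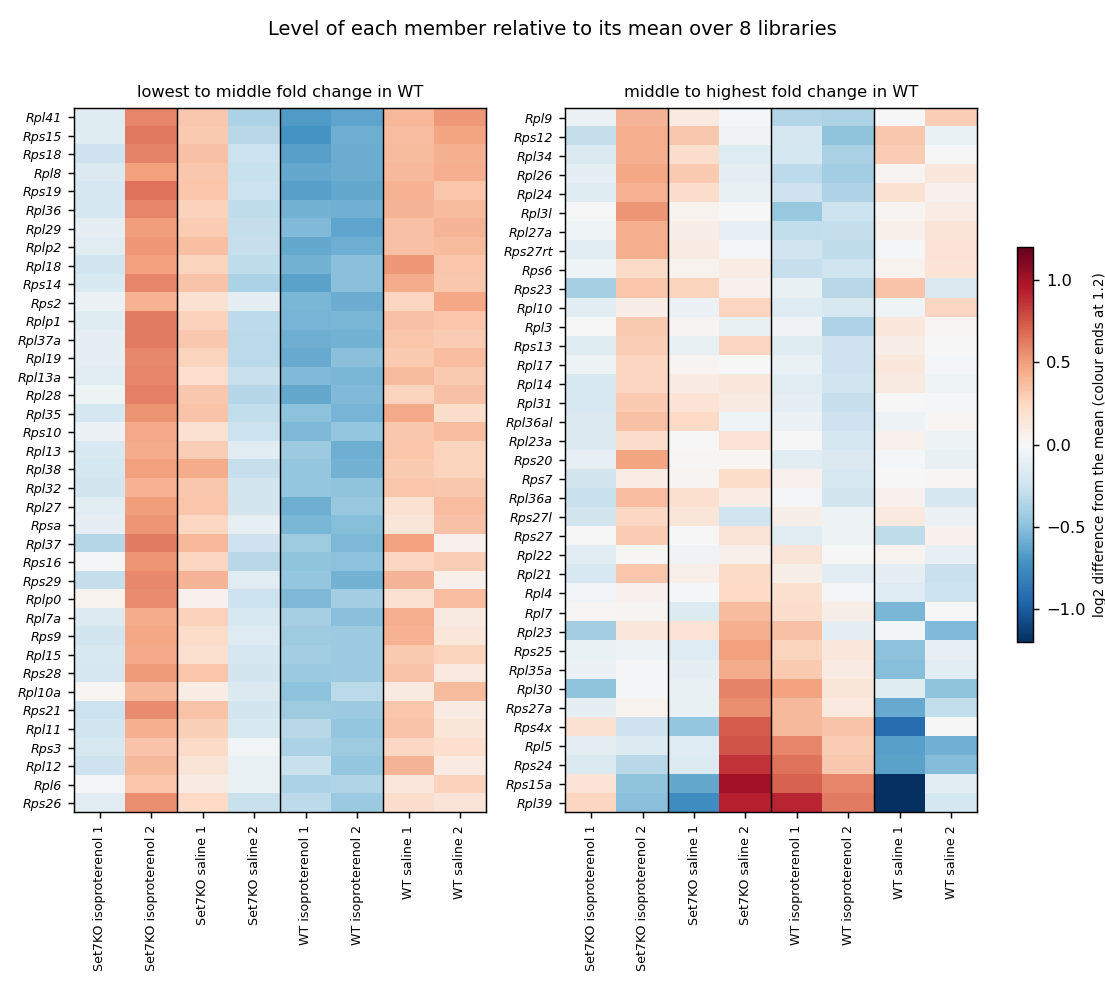
Each row is 1 of 75 of the 80 tested members and each column 1 library; colour is log2(CPM + 0.5) minus the gene's mean over the 8 libraries, and rows run by the WT log2 fold change of isoproterenol over saline, from Rpl41 (-1.13) to Rpl39 (1.45). Both WT isoproterenol columns are blue for most genes and red for the group at the lower right, and Set7KO saline replicate 2 has the same pattern of signs for those genes.

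The lowest members of the WT response were Rpl41, Rps15, Rps18, Rpl8 and Rps19. Rpl41 (ENSMUSG00000093674, chr10:128548114-128549305), a very short basic peptide of the ribosome, had 188.6 and 195 CPM after isoproterenol, against 401 and 436 CPM after saline. This is 2.18-fold lower (log2 -1.13, SE 0.31, adjusted p = 0.0959). Rps15 (ENSMUSG00000063457, chr10:80292453-80294114), a protein of the 40S head, had 333 and 364 CPM after isoproterenol, against 706 and 759 CPM after saline, with a log2 fold change of -1.07 (SE 0.31). Rps18, also of the 40S head, had 193 and 199 CPM after isoproterenol, against 393 and 407 CPM after saline. In each of these genes the saline libraries lay at about the same level as each other and well above both isoproterenol libraries.

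Rpl8, a core protein of the large subunit next to the catalytic centre, had 346 and 350 CPM after isoproterenol, against 694 and 714 CPM after saline (log2 -1.02, SE 0.28). Rps19, the gene most often mutated in the human disorder Diamond-Blackfan anaemia, had 161.4 and 166 CPM after isoproterenol, against 339 and 321 CPM after saline (log2 -1.01, SE 0.31). Rps2, which lines the mRNA entry channel, had the smallest p-value among the members. It had 469 and 455 CPM after isoproterenol, against 823 and 946 CPM after saline, with a log2 fold change of -0.94 (SE 0.23, adjusted p = 0.0941 in edgeR's quasi-likelihood test). For these 6 genes no isoproterenol value reached a saline value.

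The stalk of the large subunit, built from Rplp0, Rplp1 and Rplp2, recruits the elongation factors. Rplp0, the scaffold of the stalk, had 768 and 839 CPM after isoproterenol, against 1274 and 1450 CPM after saline (log2 -0.76, SE 0.24). Rplp1 had 385 and 388 CPM after isoproterenol, against 724 and 714 CPM after saline (log2 -0.90, SE 0.30). Rplp2 had 252 and 259 CPM after isoproterenol, against 495 and 503 CPM after saline (log2 -0.97, SE 0.29). All 3 stalk genes were lower without overlap, with adjusted p-values of 0.0967 to 0.106 in edgeR's quasi-likelihood test. Rpsa, the 40S protein also known as the laminin receptor precursor, had 381 and 389 CPM after isoproterenol, against 612 and 707 CPM after saline (log2 -0.78, SE 0.26).

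Other members with a known role outside or beside the ribosome were also lower, by different amounts. The log2 fold change was -0.96 for Rps14, the gene of the human 5q deletion syndrome, -0.89 for Rpl13a, a regulator of inflammatory mRNA translation, and -0.81 for Rpl38, which shapes the translation of Hox mRNAs in mouse embryos. It was -0.64 for Rpl11, a partner of Rpl5 in binding Mdm2, and -0.63 for Rps3, a DNA repair factor as well as a 40S protein. It was -0.36 for Rps6, the substrate of the S6 kinases, and -0.28 for Rpl10, which joins the 60S subunit last. Rps6 had 179 and 184 CPM after isoproterenol, against 222 and 242 CPM after saline. For all 7 genes, picked here because they were lower, both isoproterenol libraries lay below both saline libraries, as they did for 33.4% of all genes. None passed the adjusted threshold in edgeR's quasi-likelihood test on all 8 libraries. In DESeq2 Rps14 (adjusted p = 0.0272) and Rpl13a (adjusted p = 0.0231) passed it, where 7.2% of all genes were called lower.

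A smaller set of members had the opposite sign. Rpl39 (ENSMUSG00000079641, chrX:37082520-37085402), a small protein of the exit tunnel, had 43.6 and 35.5 CPM after isoproterenol, against 9.26 and 19.8 CPM after saline (log2 1.45, SE 0.57). Rps15a, a core 40S protein, had 153 and 140.2 CPM after isoproterenol, against 39.2 and 85.7 CPM after saline (log2 1.23, SE 0.54). In both genes WT saline replicate 1 was far below replicate 2, and their standard errors were the largest among the genes named here. Rps24 (ENSMUSG00000025290, chr14:24487125-24496959), also mutated in Diamond-Blackfan anaemia, had 219 and 174 CPM after isoproterenol, against 89.5 and 97.0 CPM after saline (log2 1.08, SE 0.33, adjusted p = 0.0990 in edgeR's quasi-likelihood test).

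Rpl5 (ENSMUSG00000058558, chr5:107900502-107909005), which binds Mdm2 together with Rpl11, had 227 and 187 CPM after isoproterenol, against 96.0 and 101 CPM after saline (log2 1.07, SE 0.30, adjusted p = 0.0959 in edgeR's quasi-likelihood test). Rpl5 and Rpl11, the pair of the Mdm2 complex, thus stood on opposite sides of 0 in this fit. With the offsets for GC content and exonic length given below, they had -0.01 and -0.40. The X-linked Rps4x had 276 and 268 CPM after isoproterenol, against 112 and 211 CPM after saline (log2 0.75, SE 0.42). Rps27a, made as a fusion with ubiquitin, had 146 and 121 CPM after isoproterenol, against 73.2 and 90.9 CPM after saline (log2 0.70, SE 0.26). Rpl30, a 60S protein that binds its own transcript in yeast, had 77.1 and 61.1 CPM after isoproterenol, against 49.8 and 39.4 CPM after saline (log2 0.63, SE 0.30).

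Most of the remaining members filled the range between these ends. In the large subunit the log2 fold change was between -0.97 and -0.80 for Rpl36, Rpl29, Rpl18, Rpl37a, Rpl19, Rpl28, Rpl35, Rpl13 and Rpl32. Rpl19 had 266 and 285 CPM after isoproterenol, against 501 and 522 CPM after saline, and Rpl18 had 160.0 and 167 CPM, against 340 and 299 CPM. It was between -0.80 and -0.40 for Rpl27, Rpl37, Rpl7a, Rpl15, Rpl10a, Rpl12, Rpl6, Rpl9, Rpl34, Rpl26, Rpl24 and Rpl27a, and between -0.21 and 0.16 for Rpl17, Rpl14, Rpl31, Rpl23a, Rpl22 and Rpl21. Rpl4, a core protein that reaches the exit tunnel, had 0.29, Rpl7 0.39, Rpl23 0.40 and Rpl35a 0.52. Of the 48 tested 60S members, 37 were lower and 6 higher without overlap of the groups, against 33.4% and 39.3% of all genes.

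In the small subunit the log2 fold change was between -0.85 and -0.57 for Rps10, Rps16, Rps29, Rps9, Rps28, Rps21 and Rps26, and -0.47 for Rps12. Rps10 had 204 and 216 CPM after isoproterenol, against 371 and 385 CPM after saline. It was between -0.31 and -0.07 for Rps23, Rps13, Rps20 and Rps7; Rps7 had 194 and 164 CPM after isoproterenol, against 188 and 188.8 CPM after saline, with overlapping groups. Rps25, which internal ribosome entry sites need, had 253 and 229 CPM after isoproterenol, against 149 and 197 CPM after saline (log2 0.48, SE 0.26). Of the 32 40S members, 22 were lower and 5 higher without overlap, against the same shares of all genes.

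The sign and size of the WT response went with the base composition of the transcript. Across the 80 members the rank correlation of the log2 fold change with GC content was -0.68, a description across genes that share the same 4 libraries. Over all genes tested it was -0.72. Across the members the rank correlation with the mean CPM of the gene was -0.58, and with transcript length 0.22. The parts of these features were not separated. The 27 members of lowest GC content (41.3% to 49.3%) had a median log2 fold change of -0.05, and 12 of them were above 0. The 26 in the middle had a median of -0.60 with 2 above 0, and the 27 of highest GC content (54.1% to 60.8%) a median of -0.85 with 1 above 0. The tilt with GC content was also visible by library: the median deviation of the GC-richest of 5 classes of all tested genes, minus that of the GC-poorest, was -0.90 and -0.64 log2 units in the WT isoproterenol libraries and 0.49 and 0.72 in the WT saline libraries. It did not follow treatment in the Set7KO hearts, where it was 0.17 and 0.56 in the isoproterenol libraries and 0.33 and -0.76 in the saline libraries, the last being Set7KO saline replicate 2.

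With offsets per library for GC content and exonic length, the median of the members in the WT comparison was -0.40, against -0.04 over all genes. The counts at an unadjusted p under 0.05 were then 32 lower and 3 higher, against 9.91% and 5.29% of genes. The 3 GC classes, from lowest to highest, had medians of -0.59, -0.40 and -0.33 with the offsets. Of the members above 0, Rpl39 kept a log2 fold change of 1.24 and Rpl30 had 1.05, while Rps24 came to -0.03 and Rpl5 to -0.01. The value of Rps15a was 0.38 with the offsets. With these offsets the opposite sign of Rps24 and Rpl5 was not present. The GC content was that of a single annotated transcript per gene, 4059 bases long for Rps24, 2045 for Rpl5 and 5179 for Rps15a. Shorter transcripts of these genes were not tried. The tilt with GC content separated the treatments in the WT libraries, so the offsets could also take out a treatment difference.

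**Figure D3:**
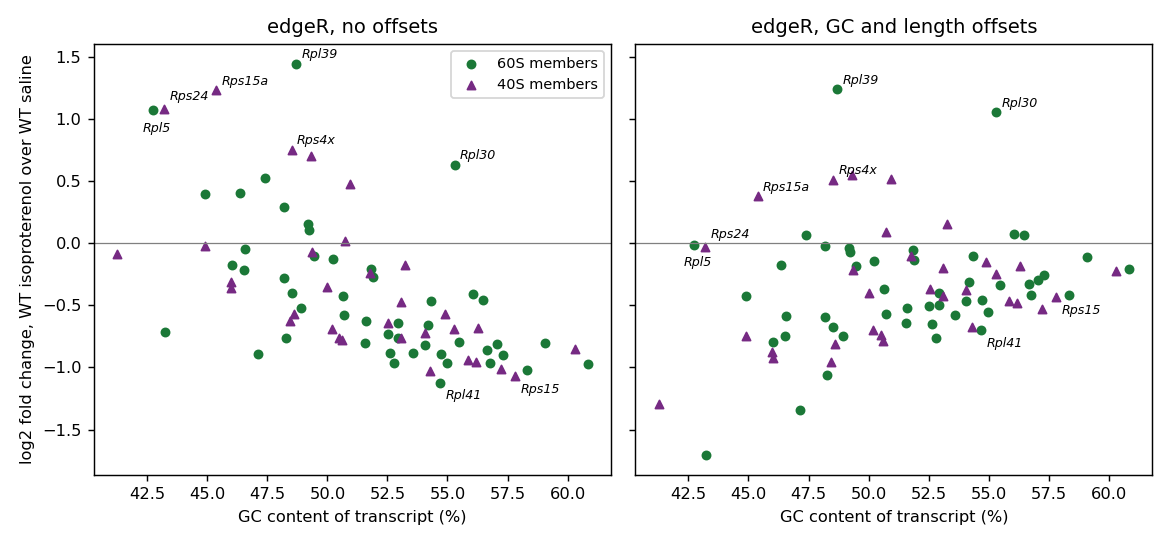
Log2 fold change of WT isoproterenol over WT saline against transcript GC content for the 80 tested members, without offsets (left) and with offsets for GC content and length (right); circles are 60S and triangles 40S members. The rank correlation is -0.68 on the left and 0.21 on the right; Rpl5 and Rps24, at the upper left without offsets, lie at 0 with them.

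Some other measures moved with the members in the WT hearts. The share of counts from mitochondrial genes was 5.75% and 4.41% after isoproterenol, against 1.85% and 2.12% after saline. The 7 lymphocyte markers, 4 of which averaged under 1 CPM, summed to 1.41 to 2.29 CPM after isoproterenol, against 8.62 to 11.7 CPM after saline. All 6 that were tested were lower without overlap, against 33.4% of all genes. The 6 macrophage markers summed to 118 to 137 CPM after isoproterenol, against 211 to 272 CPM after saline, and the 6 erythroid markers to 1254 to 1519 CPM, against 3768 to 4261 CPM. The 7 cardiomyocyte markers summed to 60598 to 62688 CPM after isoproterenol, against 66571 to 78780 CPM after saline. The endothelial markers summed to 1094 to 1106 CPM, against 1216 to 1551 CPM. The fibroblast, smooth muscle and pericyte, and neutrophil sums overlapped between the treatments. No marker of these lists was at 0 in every library. The part of these cells and of mitochondrial RNA in the members' values was not tested.

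Isoproterenol against saline in Set7KO hearts gave a median log2 fold change of 0.11 for the members, against -0.04 for all genes. No member passed an adjusted p of 0.05 in edgeR's quasi-likelihood test (0% of genes called), none had an unadjusted p under 0.05 (3.65% of genes higher and 6.01% lower), and DESeq2 called none (0.295% and 0.278% of genes). The groups did not overlap for 1 higher member and 2 lower ones, Rps24 and Rpl23, against 16% and 18.7% of genes. The highest values were 0.42 for Rplp0, 0.29 for Rpl13a, Rps16 and Rpl28, and 0.28 for Rplp1. The lowest were -0.69 for Rps24, -0.54 for Rps15a and Rpl30, -0.51 for Rpl5 and -0.43 for Rpl23.

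This median rested on single libraries: it was -0.21 without Set7KO isoproterenol replicate 2, 0.36 without replicate 1 of that group, -0.02 without Set7KO saline replicate 2 and 0.30 without replicate 1 of that group. Rplp0 shows the spread, with 1149 and 1659 CPM after isoproterenol, against 1162 and 934 CPM after saline. Rps15 had 493 and 846 CPM after isoproterenol, against 680.1 and 433 CPM after saline. Rpl8 had 467 and 743 CPM after isoproterenol, against 660.1 and 439.9 CPM after saline. In these genes the libraries of each group lay far apart. Rps24 had 124 and 111 CPM after isoproterenol, against 125 and 255 CPM after saline, so its difference came from 1 saline library. Over the 80 members, the deviations of Set7KO saline replicate 2 had a correlation of 0.94 with those of each WT isoproterenol library and -0.88 with those of Set7KO saline replicate 1, a description across genes centred on the same means. The libraries of the WT isoproterenol group had a correlation of 0.95 with each other. Set7KO saline replicate 2 shared with them the negative tilt with GC content given above (-0.76, against -0.90 and -0.64).

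Set7KO against WT after isoproterenol gave a median log2 fold change of 0.54 for the members, against -0.05 for all genes, with 67 members above 0 and 13 below. No member passed an adjusted p of 0.05 in edgeR's quasi-likelihood test (0.00567% of genes called, which is Setd7 alone) or in DESeq2 (0.42% of genes higher and 1.26% lower). With an unadjusted p below 0.05, 32 members were higher and 1 lower, against 7.22% and 12.7% of genes; the groups did not overlap for 56 higher and 10 lower members, against 31.8% and 36.3%. Rps15 had 493 and 846 CPM in Set7KO hearts and 333 and 364 CPM in WT hearts (log2 0.94, SE 0.31). Rpl41 had 274 and 456 CPM in Set7KO hearts and 188.6 and 195 CPM in WT hearts (log2 0.93, SE 0.31). The next highest were Rps19 (0.92), Rpl28 (0.89) and Rpl37a (0.88).

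The lowest members of this comparison were Rpl39 (-0.86), Rps15a (-0.78), Rps24 (-0.75), Rpl5 (-0.59) and Rpl30 (-0.56). Rpl5 had 139.95 and 134 CPM in Set7KO hearts and 227 and 187 CPM in WT hearts. The size of the difference depended on 1 library: without Set7KO isoproterenol replicate 2 the median of the members was 0.23, and without replicate 1 it was 0.83. With the offsets it was 0.32, with 20 members higher and 1 lower where the unadjusted p was under 0.05 (5.62% and 2.42% of genes). Other measures moved with it. The lymphocyte markers summed to 6.04 to 7.77 CPM in Set7KO hearts and 1.41 to 2.29 CPM in WT hearts, and the macrophage markers to 164 to 243 CPM and 118 to 137 CPM. The erythroid markers summed to 2681 to 4351 CPM in Set7KO hearts and 1254 to 1519 CPM in WT hearts, the 7 fibroblast markers to 4006 to 5441 CPM and 2714 to 3240 CPM, and the cardiomyocyte markers to 70166 to 70243 CPM and 60598 to 62688 CPM. The endothelial, smooth muscle and pericyte, and neutrophil markers were also higher in both Set7KO libraries. The mitochondrial share of counts was 3.15% and 3.43% in Set7KO hearts and 5.75% and 4.41% in WT hearts. Their part in the members' values was not tested.

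Set7KO against WT after saline gave a median log2 fold change of -0.12 for the members and 0.02 for all genes, with no member called by edgeR's quasi-likelihood test (0.00567% of genes) or DESeq2 (0.0964% of genes higher and 0.0227% lower). The groups did not overlap for 12 higher and 19 lower members, against 19.6% and 18.3% of genes. At an unadjusted p under 0.05, 3 members were higher, Rps24, Rpl5 and Rps27a, and none lower (7.83% and 2.46% of genes). Rps24 had 125 and 255 CPM in Set7KO hearts and 89.5 and 97.0 CPM in WT hearts (log2 1.02, SE 0.33). Rpl5 had 135 and 254 CPM in Set7KO hearts and 96.0 and 101 CPM in WT hearts (log2 0.98, SE 0.30). In both the high value was Set7KO saline replicate 2. Rps15a and Rpl39 each had a log2 fold change of 1.00, with standard errors of 0.54 and 0.57, and Rps27a had 0.71. The lowest members were Rpl41 (-0.45), Rpl18 (-0.42), Rps15 (-0.40) and Rpl36 and Rplp0 (both -0.38).

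Without Set7KO saline replicate 2 the median after saline was 0.03, and without replicate 1 it was -0.30; with replicate 1 left out, Rpl5 and Rps24 passed the test as higher and no member as lower (3.9% and 1.74% of genes). With the offsets the median over all 8 libraries was -0.10, and the log2 fold changes of Rps24 and Rpl5 were 0.28 and 0.21.

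**Figure D4:**
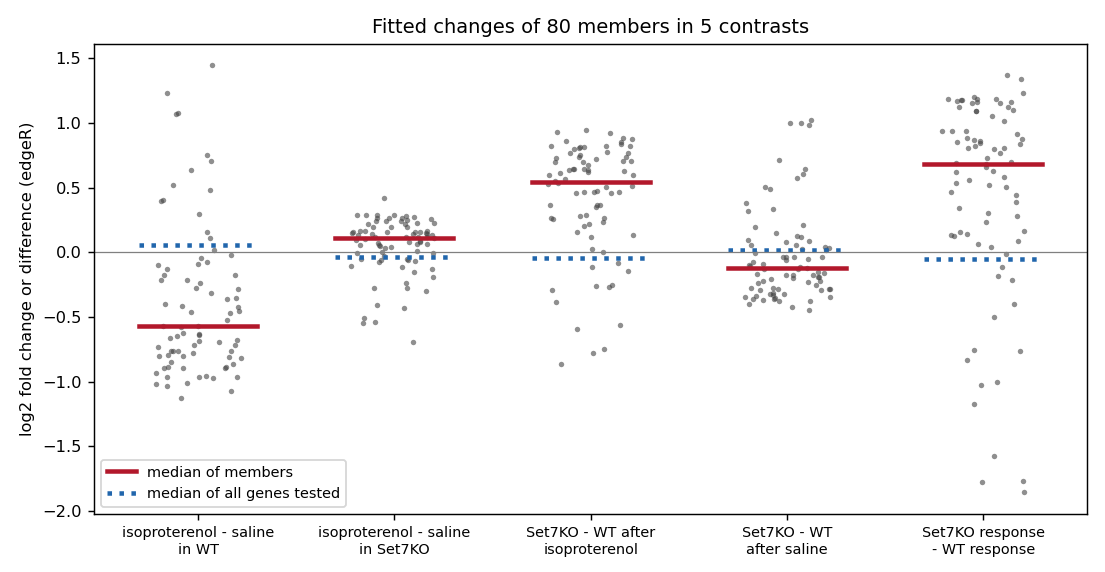
Fitted log2 values of the 80 tested members in 5 contrasts, 1 point a gene; the solid red bar is the median of the members and the dotted blue bar that of all 17636 genes tested. The medians of the members are -0.57 and 0.11 for isoproterenol over saline in WT and in Set7KO, 0.54 and -0.12 for Set7KO over WT after isoproterenol and after saline, and 0.68 for the difference between the responses.

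The test of whether the response to isoproterenol differed between genotypes (Set7KO response minus WT response) gave a median of 0.68 for the members, against -0.05 for all genes, with 64 members above 0 and 16 below. No member passed an adjusted p of 0.05 in edgeR's quasi-likelihood test (0% of genes). At an unadjusted p under 0.05, 28 were above and 6 below 0 (12% and 18.6% of genes), and DESeq2 called 16 above and 2 below after adjustment (4.66% and 8.5% of genes). The highest were Rpl41 (1.37, SE 0.44), Rps15 (1.34, SE 0.44), Rps19 (1.23), Rpl36 (1.20) and Rplp0 (1.18). The lowest were Rpl39 (-1.86), Rps15a (-1.78), Rps24 (-1.77), Rpl5 (-1.58) and Rpl30 (-1.17).

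Which Set7KO libraries entered decided these calls. Without Set7KO saline replicate 1, 25 members passed above and 9 below 0 (13.7% and 18% of genes); without Set7KO saline replicate 2, none passed (0.0055% and 0%). With no filter on low counts none passed above and 2 below 0 (0.409% and 5.39% of genes), and with the offsets and without Set7KO saline replicate 1, 2 above and 1 below 0 (0.991% and 0.285% of genes). The median of the members was 0.34 without Set7KO isoproterenol replicate 2 and 0.92 without replicate 1. With the offsets it was 0.42, with 23 members above and 2 below 0 at an unadjusted p under 0.05 (8.48% and 5.25% of genes). Rps24 and Rpl5 then came to -0.09 and 0.08. Averaged over genotypes, isoproterenol minus saline had a median of -0.22 for the members. It was -0.10 without Set7KO isoproterenol replicate 1, -0.38 without replicate 2 of that group and -0.15 without Set7KO saline replicate 1. There was no call by edgeR's quasi-likelihood test (0.051% of genes) or DESeq2 (0.493% higher and 0.93% lower) and 1 member lower and none higher where the unadjusted p was below 0.05 (4.9% and 4.5% of genes). Averaged over treatments, Set7KO minus WT had a median of 0.21, and 78 members were above 0. That median was 0.37 without Set7KO isoproterenol replicate 1, 0.053 without replicate 2 of that group and 0.12 without Set7KO saline replicate 1. None was called by edgeR's quasi-likelihood test or DESeq2 (0.00567% of genes), and none had an unadjusted p below 0.05 (0.987% of genes higher and 0.578% lower).

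Among the paralogs, Rpl3l and Rpl3 are the pair known from muscle. Rpl3l, the striated muscle form, had 429 and 618 CPM in the Set7KO isoproterenol group, 439 and 430 CPM in the Set7KO saline group, 312 and 357 CPM in the WT isoproterenol group and 436 and 455 CPM in the WT saline group. Rpl3, the general form, had 222 and 276 CPM, 226 and 209 CPM, 215 and 171 CPM, and 242 and 225 CPM in the same order of groups. Per kilobase of exon, the level of Rpl3l was 2.80 to 4.33 times that of Rpl3 in every library, and 1.42 to 2.20 times when the length of the main transcript was used. By these counts Rpl3l was the higher form in all 8 libraries under both length measures. The size of the ratio is uncertain. Of the 75-base windows of the main transcript of Rpl3, 83.2% occur in another gene, and none of those of Rpl3l do. Rows for Rpl3 pseudogenes held 25.1% as many counts as Rpl3. Reads of Rpl3 that were counted elsewhere or dropped would raise the ratio, which was not tested.

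The log2 ratio of Rpl3l to Rpl3 averaged 1.88 ± 0.27 in the isoproterenol libraries and 1.92 ± 0.09 in the saline libraries (SD, n = 4 each), a difference of -0.04 with an exact two-sided permutation p of 0.886. It averaged 1.98 ± 0.10 in the Set7KO libraries and 1.82 ± 0.24 in the WT libraries (SD, n = 4 each), a difference of 0.16 with an exact two-sided permutation p of 0.286. The smallest p that the 70 regroupings allow is 0.0286. In the fit across all genes, Rpl3l had a log2 fold change of -0.41 in the WT response (SE 0.23), 0.07 with the offsets, and 0.64 in Set7KO against WT after isoproterenol (SE 0.23, adjusted p = 0.229 in edgeR's quasi-likelihood test).

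**Figure D5:**
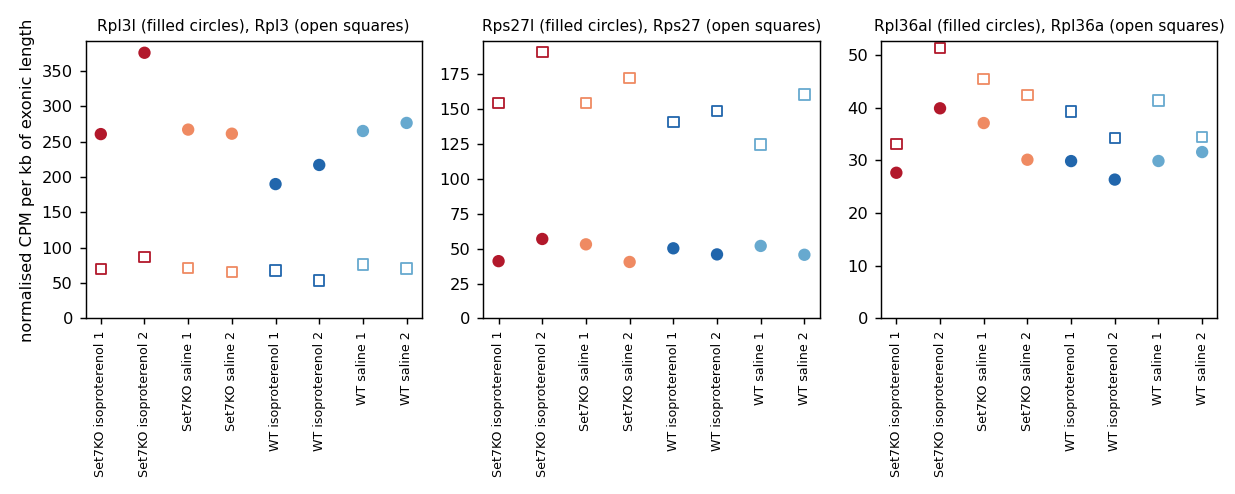
Normalised CPM per kilobase of exon in each library for 3 paralog pairs, with the paralog as filled circles and its partner as open squares; colours mark the 4 groups. Rpl3l lies above Rpl3 in every library (2.80 to 4.33 times), Rps27l below Rps27 and Rpl36al below Rpl36a in every library.

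The other paralogs were below their partners. Rps27l, a p53-induced copy of Rps27, stood at 0.23 to 0.42 times Rps27 per kilobase of exon, and Rps27rt, a retrotransposed copy, at 0.36 to 0.53 times. Rpl36al, an intronless copy of Rpl36a, stood at 0.71 to 0.92 times. When the length of the main transcript was used, the ratios were lower. They were 0.13 to 0.23 for Rps27l, 0.12 to 0.18 for Rps27rt and 0.22 to 0.28 for Rpl36al. Over the 4 pairs, the exact permutation p-values adjusted by Benjamini-Hochberg were 0.971 for treatment in each pair and 0.571 to 0.914 for genotype. In the WT response the log2 fold changes were -0.02 for Rps27l, 0.02 for Rps27, -0.13 for Rpl36al and -0.05 for Rpl36a, each smaller than its standard error. Rps27rt had -0.36 (SE 0.24). Counts of Rps27 and Rps27rt are uncertain, because 98.5% and 90.3% of the 75-base windows of their main transcripts occur in another gene. The same holds for Rpl36a, with 84.6%.

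Such sharing was common. The median member shared 35.9% of its 75-base windows with another gene, 28 of the 80 tested members shared at least 50%, and 3 members, Rpl3l and Rps3 among them, shared none. Rows for pseudogenes named after members held 11.1% to 11.9% as many counts as the members in each library. The median WT log2 fold change was -0.54 for members that shared at least 50% of windows and -0.63 for the 52 others, which shared less than that. Of the members with no shared window, Rpl3l had a WT log2 fold change of -0.41 and Rps3 one of -0.63. Rps3 had 358 and 344 CPM in WT hearts after isoproterenol, against 552 and 535 CPM after saline.

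Ribosomal proteins outside the naming rule had values on both sides. Rack1, a scaffold on the 40S head, and Fau, the precursor of Rps30, had WT log2 fold changes of -0.85 and -0.99. Rps3a1 had 0.58 (SE 0.27), with 264 and 227 CPM after isoproterenol, against 156 and 171 CPM after saline. Rpl7l1 and Rpl22l1 had log2 fold changes of -0.09 and 0.63. None of the 6 such genes passed the adjusted threshold in edgeR's quasi-likelihood test, and DESeq2 called 3 lower and none higher (7.2% and 8.22% of all genes).

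Genes of other parts of the pathway are given for comparison in the WT response, where none passed an adjusted p of 0.05 in edgeR's quasi-likelihood test on all 8 libraries. The counts that follow are at an unadjusted p under 0.05 in that test, where 13.3% of all genes were lower and 18.5% higher, and the DESeq2 counts are at an adjusted p under 0.05, where 7.2% were lower and 8.22% higher. Of 78 mitochondrial ribosomal protein genes, 26 were lower and 3 higher (22 and 1 in DESeq2), with a median of -0.21; Mrpl28 had -1.23, Mrpl12 -1.08 and Mrpl4 -0.86. Of 84 respiratory chain subunit genes, 40 were lower and 3 higher (32 and 2 in DESeq2), with a median of -0.50. Of 59 ribosome biogenesis genes, 20 were higher and 7 lower (10 and 6 in DESeq2), with a median of 0.34; Brix1 and Gnl3, which act in 60S assembly, had 1.14 and 1.11, and Wdr43, of the small subunit processome, had 1.12. With the offsets the biogenesis median was -0.09 with none higher and 4 lower (5.29% and 9.91% of all genes). The medians of the members and of the biogenesis genes thus had opposite signs without the offsets.

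Of 21 translation factors and other genes whose mRNAs carry TOP runs, 6 were higher and 5 lower (2 and 4 in DESeq2), with a median of 0.17; with the offsets none was higher and 7 were lower, with a median of -0.025. Without them Eif4a2 had 1.48, Eif3e 1.70 and Eef1a2, the muscle form of the elongation factor, -0.79. Of 25 genes of mTORC1 and TOP regulation, 4 were higher and 3 lower, shares near those of all genes in the edgeR test, with a median of -0.31. DESeq2 gave the same numbers, where 8.22% of all genes were higher and 7.2% lower. With the offsets 1 was higher and 2 lower (5.29% and 9.91% of all genes), with a median of -0.15. Without them Rictor, of mTORC2, had 1.88, the S6 kinase gene Rps6kb1 1.27 and Akt1 -0.78.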

How the data were processed

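Per the labels' protocols, heart RNA was extracted with TRIzol, TruSeq stranded mRNA libraries were prepared, and single 75-cycle reads were taken on a NextSeq 500 instrument. The deposited values are whole-number counts per gene, 1 column per library, with totals that differ between libraries as unnormalised counts do. Per the submitters' processing notes, the tools were edgeR, StringTie, HISAT and HISAT2 and the build was GRCm38. Their versions and settings, their roles and the counting of reads that match several genes (a concern for genes with many processed copies): not given in the sources used here.

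Symbols, coordinates, exonic lengths and GC contents came from GENCODE release M21 (GRCm38), which named 55227 of 55487 identifiers. GC content and the main transcript were those of a single transcript per gene. It was the principal transcript of the APPRIS annotation where there was one, else the longest. In edgeR 4.0.16 (R 4.3.3) all 8 libraries entered 1 model with a coefficient per group, TMM normalisation and filterByExpr (17636 genes). Two-sided quasi-likelihood F-tests were adjusted by Benjamini-Hochberg over all genes within each contrast, at a threshold of 0.05. The fit left 4 residual degrees of freedom. Standard errors follow from the F statistic. CPM values use TMM library sizes, and per-library deviations log2(CPM + 0.5). Offsets per library came from natural splines of GC content and exonic length (5 degrees of freedom each). Ratios of paralogs were compared by exact permutation over libraries. A count of 3 was taken as the floor.

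The members, gene lists, tests and alternatives were chosen with earlier results of these data known. Named genes are the paralogs and their partners, stalk genes and Rpsa, the 5 highest and 5 lowest members by fold change per contrast and by level per exonic length, 10 members with textbook roles, 6 ribosomal genes outside the rule, Setd7, and up to 3 genes of each other list with the smallest p in the WT response. Most of the remaining members are named by range of the WT response (some genes of these lists enter the counts and medians but are not reported here by name), and values shown for some of them, such as Rps2, Rpl18 and Rps25, were picked with those values known. The alternatives comprised other normalisations, filters and tools (limma-voom 3.58.1, DESeq2 1.42.0), an additive model, fits on the groups compared, pseudogene counts added, the 6 genes outside the rule added, offsets, and leaving out each library. The procedure was tested on simulated counts. The starts of genes came from RefSeq (GRCm38.p6).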

Additional observations from a re-analysis of the deposited data

Results flagged for a closer look

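Rps24 was the 1 member whose libraries moved in opposite directions in the 2 genotypes. Both Set7KO isoproterenol libraries lay below both Set7KO saline libraries (log2 fold change -0.69), and both WT isoproterenol libraries lay above both WT saline libraries (1.08). In Set7KO hearts the separation was narrow. The log2 deviations from the gene's mean were -0.17 and -0.33 after isoproterenol, against -0.16 and 0.87 after saline. The value of 0.87 was Set7KO saline replicate 2, so the Set7KO difference came from that library. The share of all genes with such opposite directions was not computed. The difference between the responses was -1.77 (SE 0.46), with an adjusted p of 0.0903 in edgeR's quasi-likelihood test. With offsets for GC content and length it was -0.09.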

How the results depend on the processing

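With other normalisations, the 1 CPM filter, robust quasi-likelihood, limma-voom, the additive model, pseudogene counts added and the 6 further genes added, counts of calls stayed at 0 and medians moved by less than the spread between replicates; the median of all genes was at most 0.13 from 0 under these normalisations. Without a filter, the WT comparison called 2 members higher and 5 lower (3.99% and 1.21% of genes; median -0.52) and the interaction 2 lower (5.39% of genes). DESeq2 called 3 higher and 27 lower in WT and 16 higher and 2 lower in the interaction; the fit on the WT groups alone called 5 higher and 40 lower. With GC and length offsets the medians were -0.40 in WT and 0.42 in the interaction (-0.41 and 0.40 without Set7KO saline replicate 2; -0.42 in WT without replicate 1, where the interaction called 2 higher and 1 lower, offsets with replicate 1 left out being an alternative added after seeing the data). Under the offsets, alone, without Set7KO saline replicate 2 and without replicate 1, WT values reversed for Rpl3l (0.073, 0.060, 0.061), Rpl5 (-0.011, -0.00705, -0.017) and Rps24 (-0.032, -0.026, -0.033), and the Rpl3l to Rpl3 difference for treatment became 0.078; the cause was not tested.

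Leaving out 1 library at a time, the median ranged from -0.66 to -0.53 in WT, -0.21 to 0.36 in Set7KO, -0.30 to 0.026 for genotype after saline, 0.23 to 0.83 for genotype after isoproterenol, 0.34 to 0.92 for the interaction, -0.38 to -0.10 for isoproterenol averaged over genotypes and 0.053 to 0.37 for genotype averaged over treatments. Calls ranged from 0 to 5 higher and 0 to 24 lower in WT, 0 to 2 higher for genotype after saline, and 0 to 25 higher and 0 to 9 lower in the interaction. The Rpl3l to Rpl3 treatment difference ranged from -0.12 to 0.092. A group left with 1 library was assumed to vary like the others. No paired analysis was possible because the labels give the groups no shared replicate numbers. Every tested member had a count in every library; the part of depth and of group size in the number of calls was not tested.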
